A study of Mus musculus with 16 samples.

Results

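The Hox genes of mouse embryonic fibroblasts were examined in a cell line with stable knockdown of Atf5 and in its control line. Members were chosen by name: a probe set of the array had to carry exactly 1 gene symbol, and that symbol had to be Hox followed by a cluster letter from a to d and a paralog number. This gave 37 Hox genes of 19938 genes tested, with 10 genes in cluster a and 9 in each of clusters b, c and d, and each was measured by 1 probe set. Hoxb8 lies on a probe set shared with Hoxb7, which is given separately below.

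Total RNA of 16 plates was hybridised to 16 Affymetrix whole-transcript arrays, with 4 arrays in each of 4 groups. The groups were ATF5-KD cells with MG132, ATF5-KD cells with vehicle, WT cells with MG132 and WT cells with vehicle. ATF5-KD cells stably express an shRNA against Atf5, which encodes a basic leucine zipper transcription factor, and WT cells express a scramble shRNA. MG132, an inhibitor of the proteasome, was given at 1 µM for 8 h, the vehicle was DMSO, and vehicle plates were harvested together with the treated ones. Each shRNA is represented by 1 line, and the labels do not say how the lines were derived, so an effect of the hairpin and another difference between the lines cannot be told apart. The labels do not say that plates came from separate cultures, so p-values measure the spread between these plates, which may be technical. All values below are log2 probe set intensities, and differences are on the log2 scale with the standard error of the fit.

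Hox genes encode homeodomain transcription factors that give cells their position along the body axis and along the limb. In mammals they lie in 4 clusters on different chromosomes, and genes with the same paralog number in different clusters descend from 1 ancestral gene. Within a cluster, genes with low numbers lie at the 3′ end and are used at anterior levels, and genes with high numbers lie at the 5′ end and are used posteriorly and in the distal limb. Cultured fibroblasts keep the Hox pattern of the body site they were taken from, and Polycomb and Trithorax proteins maintain it.

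The arrays were alike in scale, with medians between 7.71 and 7.82, and arrays of 1 group correlated at 0.993 to 0.998. Within a group the median SD of a Hox gene was between 0.0812 and 0.108, against 0.0618 to 0.0804 over all genes, and the number of arrays limits the precision. Atf5 itself read 8.32, 8.39, 8.28 and 8.41 in ATF5-KD cells with vehicle, against 8.68, 8.51, 8.46 and 8.62 in WT cells with vehicle. With MG132 it read 8.45, 8.43, 8.45 and 8.49 in ATF5-KD cells, against 8.75, 8.72, 8.68 and 8.91 in WT cells. The values of the lines did not overlap, and Atf5 was lower in ATF5-KD cells, with a difference of -0.22 ± 0.05 with vehicle (limma adjusted p = 0.00321) and -0.31 ± 0.05 with MG132 (adjusted p = 0.000148, exact permutation p = 0.0286 for both). That permutation p is the smallest possible with 4 arrays against 4 and follows from the lack of overlap, so it adds nothing to it. The call with vehicle was lost without 4 arrays that stand at 1 end of a gradient across all arrays (difference -0.12, adjusted p = 0.0511). Of 10 fibroblast markers, 9 were above the 25th percentile in the mean of every group. Where the probes lie relative to the hairpin's target was not known here.

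The first question was whether the lines differed in their Hox genes. With vehicle, 27 of 37 Hox genes passed the test (limma, Benjamini-Hochberg adjusted p under 0.05 over all 19938 genes), and 21 were higher and 6 lower in ATF5-KD cells. Of all genes tested, 39.4% passed, 21.5% higher and 17.9% lower. A difference of at least 2-fold that passed was found for 13 of the 37 Hox genes, against 3.11% of all genes. The median difference was 0.33 for the Hox genes and -0.01 for all genes tested. The array values of the lines did not overlap for 26 of the 37, against 38.7% of all genes. In bulk RNA, more cells with a given Hox gene and more RNA per cell cannot be told apart.

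The higher genes included the whole of cluster c. With vehicle, 9 of its 9 genes were higher in ATF5-KD cells, all by more than 2-fold, with a median difference of 2.51 and a range from 1.17 to 4.33. In clusters a, b and d together, 12 of 28 genes were higher, 6 were lower, and the median difference was 0.04. Among all genes tested, 21.5% were higher and 17.9% lower. In ATF5-KD cells with vehicle the arrays of cluster c genes ranged from 6.87 to 11.69, against 5.60 to 7.53 in WT cells with vehicle. The 25th percentile of an array lay between 6.28 and 6.40. No detection calls were used, so WT values in this range are not read as absence, and the array may understate the size of such differences.

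Hoxc8, which patterns the thoracic skeleton, read 11.36, 11.50, 11.69 and 11.58 in ATF5-KD cells with vehicle, against 7.30, 6.97, 7.21 and 7.34 in WT cells with vehicle. Under MG132 it read 10.57, 10.65, 10.75 and 10.60 in ATF5-KD cells, against 7.66, 7.30, 7.16 and 7.63 in WT cells. Every ATF5-KD array was above every WT array, by 4.33 ± 0.11 with vehicle, a 20.1-fold difference (adjusted p = 2.65e-15). By size this was difference number 9 among 19938 genes. The WT values were not shown to be above background, so the fold describes intensities only.

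Hoxc6, a gene of the cervical to thoracic region, read 10.03, 10.07, 10.28 and 10.32 in ATF5-KD cells with vehicle, against 6.58, 6.44, 6.67 and 6.53 in WT cells with vehicle. With MG132 the values were 9.21, 9.20, 9.48 and 9.63 in ATF5-KD cells and 6.63, 6.54, 6.63 and 6.48 in WT cells. The lines were separated by more than 2 log2 units in both conditions, and the difference with vehicle was 3.62 ± 0.09 (adjusted p = 3.23e-15). Hoxc9, which acts in the thoracic skeleton and in motor neurons, read 10.13, 10.37, 10.37 and 10.39 in ATF5-KD cells with vehicle, against 7.53, 7.23, 7.41 and 7.42 in WT cells with vehicle. Its values with MG132 were 10.09, 9.91, 10.02 and 10.03 in ATF5-KD cells and 7.46, 7.40, 7.32 and 7.54 in WT cells. Here too the lines did not overlap, with a difference of 2.92 ± 0.07 with vehicle (adjusted p = 1.82e-15).

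The 5′ end of the cluster was also higher in ATF5-KD cells. Hoxc13, which is needed for hair and nail, read 9.75, 9.79, 9.87 and 9.96 in ATF5-KD cells with vehicle, against 7.24, 7.42, 7.23 and 7.45 in WT cells with vehicle, and differed by 2.51 ± 0.09. With MG132 it read 9.12, 8.96, 9.34 and 9.24 in ATF5-KD cells, against 7.0, 6.85, 7.30 and 7.21 in WT cells. Hoxc12, its neighbour, read 10.09, 10.04, 10.04 and 10.13 in ATF5-KD cells with vehicle, against 7.41, 7.39, 7.24 and 7.44 in WT cells with vehicle, and differed by 2.71 ± 0.07. All values of ATF5-KD cells lay above those of WT cells for both genes. The MG132 values of Hoxc12 were 9.17, 9.31, 9.40 and 9.24 in ATF5-KD cells and 7.23, 7.09, 7.20 and 7.49 in WT cells. Hoxc11, a gene of the lumbosacral region and hindlimb, read 8.27, 8.57, 8.43 and 8.39 in ATF5-KD cells with vehicle, against 6.75, 6.26, 6.64 and 6.47 in WT cells with vehicle, and differed by 1.89 ± 0.11. Its values with MG132 were 8.11, 8.12, 8.29 and 8.11 in ATF5-KD cells and 6.36, 6.27, 6.41 and 6.76 in WT cells, again without overlap.

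Smaller differences, still above 2-fold with vehicle, were found for Hoxc10, Hoxc5 and Hoxc4. Hoxc10, which acts in lumbar motor neurons, read 7.90, 7.82, 7.89 and 8.03 in ATF5-KD cells with vehicle, against 6.82, 6.65, 6.73 and 6.77 in WT cells with vehicle, and 7.72, 7.78, 7.87 and 7.63 in ATF5-KD cells with MG132, against 6.68, 6.47, 6.65 and 6.85 in WT cells with MG132. The lines did not overlap, with a difference of 1.17 ± 0.07 with vehicle. Hoxc5 read 8.61, 8.66, 8.65 and 8.58 in ATF5-KD cells with vehicle, against 6.94, 6.87, 6.69 and 6.87 in WT cells with vehicle, and differed by 1.78 ± 0.12. Its MG132 values were 7.85, 8.06, 7.98 and 8.00 in ATF5-KD cells and 6.48, 6.55, 6.85 and 7.30 in WT cells, and the SD of the last group, 0.37, was the highest of any Hox gene. Hoxc4, the 3′ end of the cluster, read 6.87, 6.92, 6.89 and 6.91 in ATF5-KD cells with vehicle, against 5.77, 5.60, 5.65 and 5.75 in WT cells with vehicle, and differed by 1.21 ± 0.07. Under MG132 Hoxc4 read 6.48, 6.51, 6.55 and 6.60 in ATF5-KD cells, against 5.81, 5.84, 5.71 and 6.12 in WT cells. It was the only Hox gene whose mean over all arrays lay below the 25th percentile of gene means, and its groups did not overlap between the lines either.

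**Figure D1:**
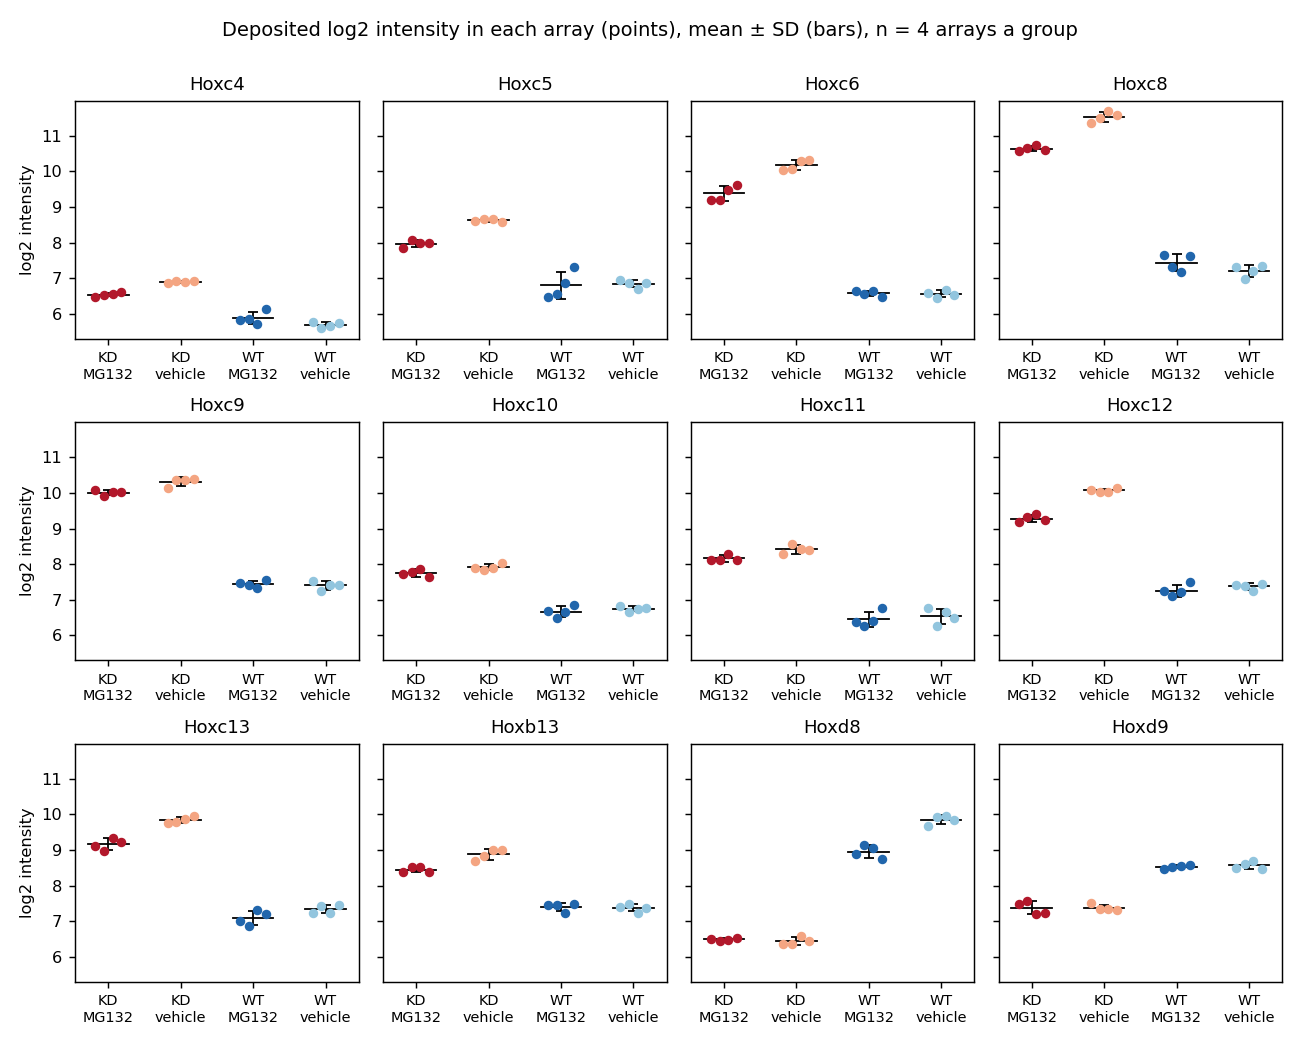
Log2 intensity (y axis) of the 12 Hox genes with the largest differences between the lines, in the 4 groups (x axis), with 1 point per array and the mean ± SD as bars. The ATF5-KD arrays lie above the WT arrays for the cluster c genes and Hoxb13 and below them for Hoxd8 and Hoxd9, for Hoxc8 at 11.36 to 11.69 with vehicle, against 6.97 to 7.34 in WT cells.

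Cluster d held the largest difference in the other direction. With vehicle, 3 of its 9 genes were lower in ATF5-KD cells (Hoxd4, Hoxd8 and Hoxd9), 0 were higher by limma, also at an unadjusted p under 0.05, and the other 6 did not pass. The share called, 33.3%, was below the 39.4% of all genes (21.5% higher, 17.9% lower). Hoxd8, a gene of the trunk, read 6.36, 6.36, 6.59 and 6.45 in ATF5-KD cells with vehicle, against 9.69, 9.94, 9.96 and 9.84 in WT cells with vehicle. With MG132 it read 6.51, 6.43, 6.48 and 6.52 in ATF5-KD cells, against 8.88, 9.13, 9.06 and 8.74 in WT cells. Every ATF5-KD array was below every WT array, and the difference with vehicle was -3.42 ± 0.08 (adjusted p = 1.32e-15). The ATF5-KD values lay close to the 25th percentile of an array (6.28 to 6.40) and were not shown to be above background, so no fold is given.

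Hoxd9, which acts in the lumbar spine and the proximal limb, read 7.50, 7.33, 7.35 and 7.30 in ATF5-KD cells with vehicle, against 8.49, 8.62, 8.68 and 8.48 in WT cells with vehicle. Its MG132 values were 7.49, 7.58, 7.21 and 7.24 in ATF5-KD cells and 8.47, 8.52, 8.55 and 8.59 in WT cells. The lines did not overlap, with a difference of -1.20 ± 0.07 with vehicle (adjusted p = 6.61e-10). Hoxd4, a gene of the hindbrain and neck, was lower by a smaller amount, with a difference of -0.45 ± 0.06 (adjusted p = 1.78e-05), with array values of 6.83 to 7.04 in ATF5-KD cells and 7.28 to 7.42 in WT cells. The other 6 genes of the cluster, Hoxd1, Hoxd3 and Hoxd10 to Hoxd13, had differences from -0.01 for Hoxd12 to 0.09 for Hoxd13 with vehicle. Their values lay between 6.64 and 7.48 on all 16 arrays.

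Cluster a was higher in ATF5-KD cells by less. With vehicle, 8 of 10 genes passed, all higher, against 39.4% of all genes (21.5% higher), with a median difference of 0.53. The largest was Hoxa10, which acts in the lumbar region and the uterus, at 9.34, 9.74, 9.35 and 9.5 in ATF5-KD cells, against 8.49, 8.32, 8.05 and 8.41 in WT cells, and the values did not overlap (difference 1.17 ± 0.10, adjusted p = 4.96e-08). Hoxa9, Hoxa11, Hoxa5 and Hoxa6 differed by 0.81, 0.72, 0.65 and 0.65. Hoxa13, a gene of the distal limb, was the smallest call at 0.13 ± 0.05 (adjusted p = 0.0361), and it was lost without WT vehicle plate 2 or 3 or ATF5-KD vehicle plate 1, 2 or 4 (adjusted p between 0.0672 and 0.123). Hoxa2 and Hoxa4 did not pass, at -0.14 ± 0.07 and 0.05 ± 0.07. Hoxa2 passed as lower without WT vehicle plate 1 (adjusted p = 0.0291) or ATF5-KD vehicle plate 4 (adjusted p = 0.0171).

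Cluster b held calls in both directions. With vehicle, Hoxb5, Hoxb6, Hoxb7 and Hoxb13 were higher in ATF5-KD cells, and Hoxb2, Hoxb3 and Hoxb4 were lower. Among all genes tested, 21.5% were higher and 17.9% lower. Hoxb13, the 5′ end of the cluster and a gene of the tail and the prostate, read 8.69, 8.82, 9.0 and 9.01 in ATF5-KD cells with vehicle, against 7.41, 7.47, 7.24 and 7.37 in WT cells with vehicle. Its values with MG132 were 8.38, 8.51, 8.53 and 8.38 in ATF5-KD cells and 7.45, 7.46, 7.23 and 7.47 in WT cells. The lines did not overlap, and Hoxb13 was higher by 1.51 ± 0.07 with vehicle (adjusted p = 2.95e-11). Hoxb5, Hoxb6 and Hoxb7 were higher by 0.51, 0.42 and 0.18, and Hoxb4, Hoxb2 and Hoxb3 differed by -0.32, -0.26 and -0.15. The call of Hoxb2 was lost without WT vehicle plate 1 (adjusted p = 0.0733) or ATF5-KD vehicle plate 1 (adjusted p = 0.0667). Hoxb1 and Hoxb9 did not pass, and Hoxb9 read 10.70 to 10.76 in ATF5-KD cells, against 10.69 to 10.80 in WT cells.

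The probe set that Hoxb7 shares with Hoxb8 went the other way from Hoxb7's own. It averaged 8.45 ± 0.08 in ATF5-KD cells and 8.89 ± 0.04 in WT cells with vehicle (SD, n = 4 each), a difference of -0.44 ± 0.06 (adjusted p = 1.42e-05). With MG132 it averaged 7.95 ± 0.10 in ATF5-KD cells and 8.43 ± 0.08 in WT cells (SD, n = 4 each), a difference of -0.48 ± 0.06. How much of it is Hoxb8 was not tested. In the RefSeq models, the gene bodies of Hoxa3 with each of Hoxa4, Hoxa5 and Hoxa6, of Hoxb3 with Hoxb4, of Hoxd3 with Hoxd4 and of Hoxd10 with Hoxd11 overlap, so a probe set of 1 may read transcripts of the other.

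**Figure D2:**
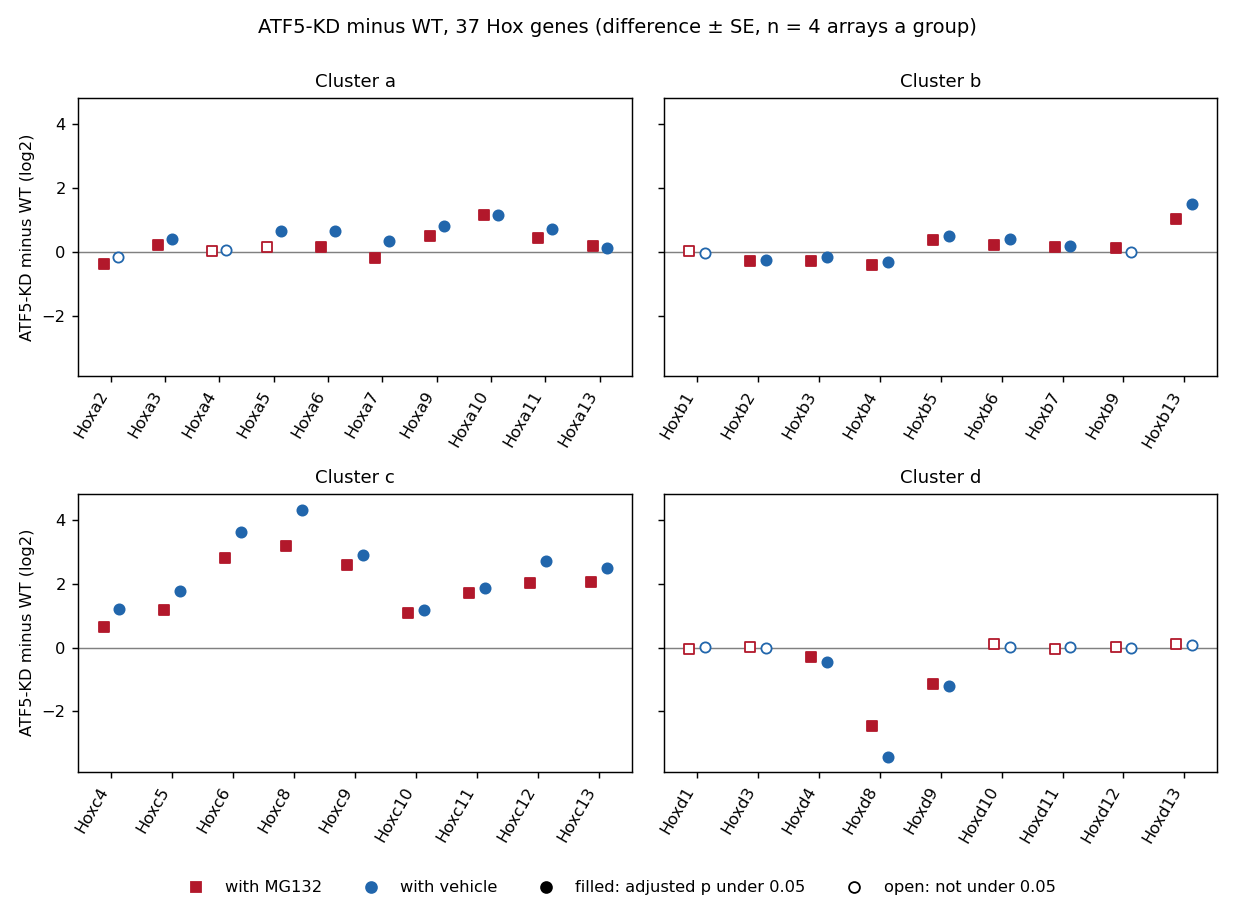
Difference between ATF5-KD and WT cells (log2, y axis) for each Hox gene in paralog order (x axis) in clusters a to d, with MG132 (squares) and with vehicle (circles); bars are the standard error and are mostly smaller than the symbols. Cluster c is above 0 throughout, with a peak at Hoxc8 (4.33 with vehicle), and cluster d departs from 0 at Hoxd8 (-3.42), Hoxd9 (-1.20) and Hoxd4 (-0.45).

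With MG132 the lines were compared on the other 8 arrays. Here 28 of 37 Hox genes passed, 20 higher and 8 lower in ATF5-KD cells, against 38.1% of all genes (17.7% higher, 20.3% lower). The median difference was 0.17 for the Hox genes and 0.00 for all genes, and 12 of 37 passed at 2-fold or more, against 2.42% of all genes. All 9 genes of cluster c were higher again, with a median of 2.03, from 0.67 for Hoxc4 to 3.21 ± 0.11 for Hoxc8. Hoxd8 was lower, at -2.47 ± 0.08 (adjusted p = 1.3e-13), and Hoxd9 and Hoxd4 differed by -1.15 and -0.28. Hoxa10 was higher by 1.15 ± 0.10 and Hoxb13 by 1.05 ± 0.07.

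Of the 37 genes, 19 were higher in ATF5-KD cells in both conditions and 6 were lower in both (Hoxb2, Hoxb3, Hoxb4, Hoxd4, Hoxd8 and Hoxd9). Of all genes, 21.5% were higher and 17.9% lower with vehicle, and 17.7% and 20.3% with MG132. The share of all genes called in both conditions is not given here. In both conditions 8 genes did not pass (Hoxa4, Hoxb1, Hoxd1, Hoxd3, Hoxd10, Hoxd11, Hoxd12 and Hoxd13). Hoxa7 was called in opposite directions, at -0.19 ± 0.04 with MG132 and 0.33 ± 0.04 with vehicle. Hoxa2 and Hoxb9 passed with MG132 only, at -0.39 and 0.14, and Hoxa5 passed with vehicle only. Hoxa5 with MG132 was at 0.17 ± 0.07 (adjusted p = 0.0756) and passed without ATF5-KD vehicle plate 1, WT MG132 plate 3 or ATF5-KD MG132 plate 2 (adjusted p between 0.0202 and 0.0385). The call of Hoxa6 with MG132 was lost without WT MG132 plate 4 (adjusted p = 0.0855) or ATF5-KD MG132 plate 1 (adjusted p = 0.0741). That of Hoxb7, at 0.15, was lost without any 1 of WT MG132 plates 1 and 3 and ATF5-KD MG132 plates 1, 3 and 4 (adjusted p between 0.0511 and 0.11). Across the 37 genes the differences in the 2 conditions correlated at r = 0.987 (Spearman 0.958), a description in which genes are not independent. The correlation over all genes is not given here, so this value is not read as particular to Hox genes.

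Several paralog groups held both directions. In group 8 the only members measured singly, Hoxc8 and Hoxd8, were higher and lower in ATF5-KD cells, at 4.33 and -3.42 with vehicle. In group 9, Hoxc9 and Hoxa9 were higher, Hoxd9 was lower, and Hoxb9 was at 0.00 ± 0.04. In group 3, Hoxa3 was higher, at 0.41, and Hoxb3 was lower, at -0.15. In group 4, Hoxc4 was higher, and Hoxb4 and Hoxd4 were lower. Groups 5, 6 and 7 had only higher members with vehicle, 8 of 8 in clusters a, b and c. In groups 10 to 13 the members of clusters a, b and c were higher with vehicle, and Hoxd10, Hoxd11, Hoxd12 and Hoxd13 did not pass. By position, with vehicle, 2 of 11 genes numbered 1 to 4 were higher and 4 lower. Of those numbered 5 to 8, 9 of 10 were higher and 1 lower, and of those numbered 9 to 13, 10 of 16 were higher and 1 lower. Among all genes tested, 21.5% were higher and 17.9% lower. These counts mix the clusters, cluster c being higher throughout, so position was not separated from cluster.

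**Figure D3:**
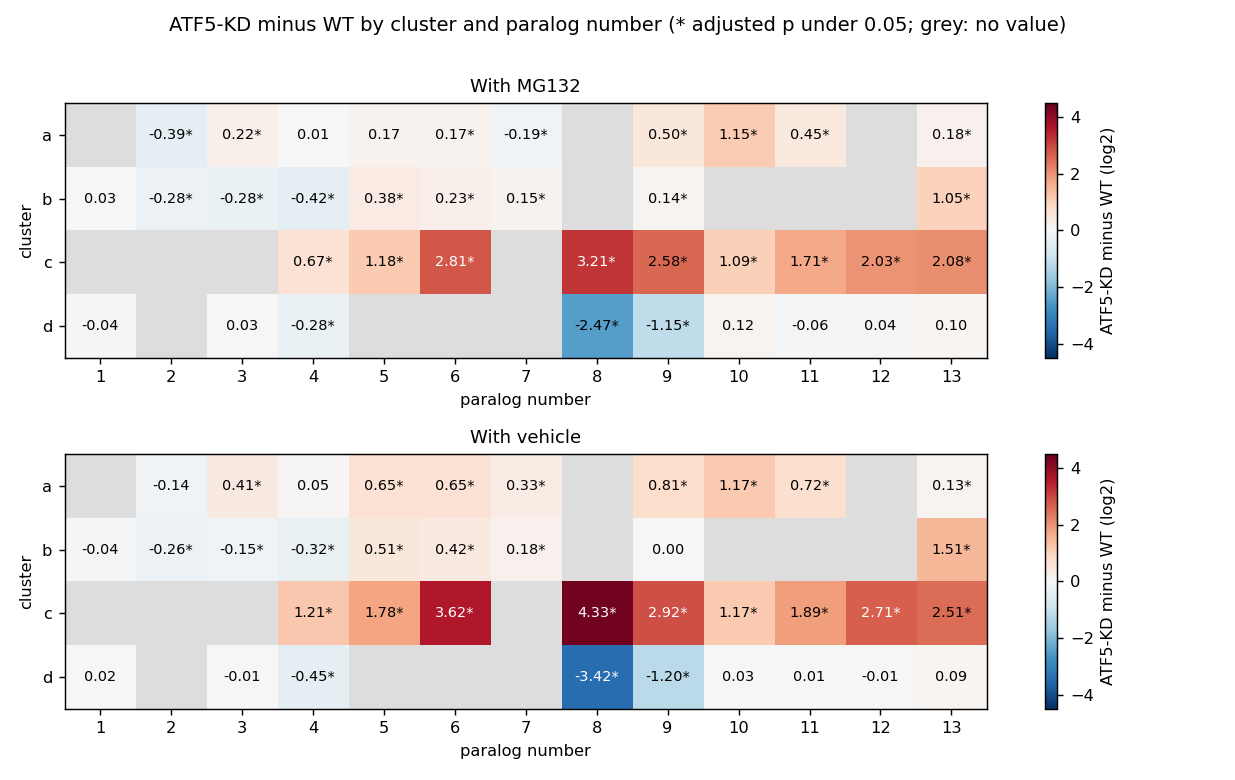
Difference between ATF5-KD and WT cells (log2, colour and number) by cluster (rows) and paralog number (columns), with MG132 above and vehicle below; an asterisk marks an adjusted p under 0.05 and grey marks positions with no value. Columns 3, 4, 8 and 9 hold calls in both directions in both conditions, as column 7 does with MG132; Hoxc8 is at 4.33 and Hoxd8 at -3.42 with vehicle.

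Start-site sequences of the genes with large differences are shown because they give the regions in which shared motifs were sought. The RefSeq table of assembly GRCm38.p6 gave windows from 250 bases before to 50 after a start for 21 of the Hox genes, at 23 starts. Of the 12 genes with the largest line differences it held Hoxc4, Hoxd8 and Hoxd9. These are printed with Hoxa10, the largest difference in cluster a, at 1 of its 2 starts. Capitals mark CCAAT and TATAAA on either strand, where they read ATTGG and TTTATA when found on the opposite one.
Hoxc4, chr15:103034145-103034444, plus strand, higher in ATF5-KD cells: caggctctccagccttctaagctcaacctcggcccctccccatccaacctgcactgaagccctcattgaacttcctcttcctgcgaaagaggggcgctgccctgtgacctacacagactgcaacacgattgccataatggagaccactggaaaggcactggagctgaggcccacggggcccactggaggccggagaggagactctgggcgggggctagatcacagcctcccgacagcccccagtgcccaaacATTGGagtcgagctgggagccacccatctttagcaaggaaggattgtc
Hoxd8, chr2:74704365-74704664, plus strand, lower in ATF5-KD cells: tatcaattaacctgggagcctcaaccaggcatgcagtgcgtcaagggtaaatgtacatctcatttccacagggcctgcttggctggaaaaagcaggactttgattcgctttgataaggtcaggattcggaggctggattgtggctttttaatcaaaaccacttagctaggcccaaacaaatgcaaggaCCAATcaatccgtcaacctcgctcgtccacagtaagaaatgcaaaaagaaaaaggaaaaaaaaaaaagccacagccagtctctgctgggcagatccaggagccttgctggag
Hoxd9, chr2:74697513-74697812, plus strand, lower in ATF5-KD cells: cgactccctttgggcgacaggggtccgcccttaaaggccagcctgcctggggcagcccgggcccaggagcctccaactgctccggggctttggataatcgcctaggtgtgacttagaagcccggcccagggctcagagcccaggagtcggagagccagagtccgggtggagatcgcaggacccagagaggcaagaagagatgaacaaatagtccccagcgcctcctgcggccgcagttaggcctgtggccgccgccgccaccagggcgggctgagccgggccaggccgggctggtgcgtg
Hoxa10, chr6:52234890-52235189, minus strand, higher in ATF5-KD cells: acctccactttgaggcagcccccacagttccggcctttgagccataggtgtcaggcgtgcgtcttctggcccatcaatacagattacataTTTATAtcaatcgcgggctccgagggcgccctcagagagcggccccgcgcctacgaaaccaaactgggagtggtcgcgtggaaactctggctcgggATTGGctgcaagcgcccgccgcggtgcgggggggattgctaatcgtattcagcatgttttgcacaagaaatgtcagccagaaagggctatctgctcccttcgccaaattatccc

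CCAAT, on either strand, was present in 14 of 23 Hox windows and in 37.4% of 32841 windows of all genes. TATAAA was present in 3 of 23 Hox windows, against 13.6% of all, and among the 4 printed only in Hoxa10. The window at the other start of Hoxa10, which is not printed, held neither TATAAA nor CCAAT. The letters TGATNNAT, a form of the site bound by Hox and Pbx proteins together, were present in 3 of 23, against 8.85% of all. The letters TGATGNAA, a composite site of C/EBP and ATF factors, were in 0 of 23, against 3.97% of all, and TGACGTCA, the cyclic AMP response element, was in 0 of 23, against 1.79% of all. TGATNNAT and TGATGNAA share their first letters, TGAT, and no match says only that the letters are not in these windows. The printed windows held 9 CG dinucleotides in Hoxc4, 6 in Hoxd8, 20 in Hoxd9 and 21 in Hoxa10, whose other start held 12. The median was 15 over Hox windows and 7 over all windows.

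The second question was how the Hox genes responded to MG132. In ATF5-KD cells 21 of 37 Hox genes were lower with MG132 and 0 were higher by limma, against 24.3% lower and 16.4% higher among all genes (40.7% called). At an unadjusted p under 0.05, 0 were higher, and a linear model without limma's prior also called 0 higher. The median difference was -0.23 for the Hox genes and 0.03 for all genes. Lower genes numbered 7 of 10 in cluster a, 7 of 9 in cluster b, 7 of 9 in cluster c and 0 of 9 in cluster d, where 0 had an unadjusted p under 0.05. Without ATF5-KD vehicle plate 1, Hoxb1, Hoxd1, Hoxd3 and Hoxd4 passed as higher (adjusted p between 0.0125 and 0.0409). Hoxc10 passed as lower without WT MG132 plate 2 or 4 or ATF5-KD MG132 plate 3 (adjusted p between 0.0437 and 0.0453), and Hoxc11 without WT vehicle plate 2, ATF5-KD vehicle plate 1, WT MG132 plate 4 or ATF5-KD MG132 plate 3 (adjusted p between 0.026 and 0.0495). With each array centred on its median, 24 Hox genes were lower and 0 higher, and the higher genes made up 24% of all genes called, against 40.3% without centring.

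In WT cells 10 of 37 Hox genes were lower and 3 higher with MG132, against 19% lower and 16.8% higher among all genes (35.8% called). The median difference was -0.07 for the Hox genes and 0.03 for all genes. The 3 higher genes, Hoxa9, Hoxc4 and Hoxd1, were at 0.17, 0.18 and 0.16. With each array centred on its median none of these passed, 13 Hox genes were lower and 0 higher, and higher genes made up 31.7% of all genes called, against 46.8% without centring. The calls of Hoxc4 and Hoxd1 were also lost without WT vehicle plate 2 (adjusted p = 0.137 and 0.106) or WT MG132 plate 2 (adjusted p = 0.06 and 0.0905), and that of Hoxc4 without WT vehicle plate 3 (adjusted p = 0.111), WT MG132 plate 4 (adjusted p = 0.147) or any 1 of the 8 ATF5-KD plates (adjusted p between 0.0509 and 0.0568). That of Hoxd1 was lost without WT vehicle plate 4 (adjusted p = 0.0532) or WT MG132 plate 3 (adjusted p = 0.0805). Those of Hoxa7 and Hoxa13, at -0.12 and -0.14, were lost without WT vehicle plate 4 (adjusted p = 0.08 and 0.101) or WT MG132 plate 1 or 3 (adjusted p between 0.0642 and 0.0797), and also without WT vehicle plate 2 for Hoxa7 (adjusted p = 0.0753) and WT vehicle plate 1 or WT MG132 plate 2 for Hoxa13 (adjusted p = 0.065 and 0.0934). Hoxb9 passed as lower without WT vehicle plate 1 (adjusted p = 0.0399) or WT MG132 plate 2 (adjusted p = 0.0314), Hoxc5 without WT MG132 plate 4 (adjusted p = 0.0415), and Hoxc13 without WT vehicle plate 3, WT MG132 plate 3 or 4 or ATF5-KD MG132 plate 2 or 3 (adjusted p between 0.0157 and 0.0499). Both responses share their line's arrays with the line comparisons above.

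Lower in both lines were 8 genes, Hoxa2, Hoxa3, Hoxa5, Hoxa6, Hoxa7, Hoxb2, Hoxb4 and Hoxb7. Of all genes, 24.3% were lower in ATF5-KD cells and 19% in WT cells, and the share lower in both is not given here. Hoxa2, which sets the identity of the second branchial arch, read 7.39, 7.43, 7.41 and 7.30 in ATF5-KD cells with MG132, against 8.26, 8.41, 8.31 and 8.60 with vehicle. In WT cells it read 7.73, 7.90, 7.78 and 7.67 with MG132, against 8.36, 8.59, 8.60 and 8.61 with vehicle. The treatments did not overlap in either line, with differences of -1.01 ± 0.07 in ATF5-KD cells and -0.77 ± 0.07 in WT cells (adjusted p = 7.14e-09 and 1.94e-07). Hoxb2, a gene of the hindbrain, read 9.52, 9.25, 9.65 and 9.42 in ATF5-KD cells with MG132, against 10.04, 10.16, 10.25 and 10.33 with vehicle. Its values in WT cells were 9.75, 9.89, 9.68 and 9.64 with MG132 and 10.59, 10.35, 10.44 and 10.42 with vehicle. These did not overlap either, with differences of -0.73 ± 0.08 in ATF5-KD cells and -0.71 ± 0.08 in WT cells.

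Hoxa5, which is needed for lung development, read 8.34, 8.15, 8.40 and 8.34 in ATF5-KD cells with MG132, against 8.95, 9.29, 9.16 and 9.16 with vehicle. In WT cells Hoxa5 read 8.08, 8.14, 8.30 and 8.04 with MG132, against 8.43, 8.53, 8.53 and 8.46 with vehicle. It was lower with MG132 in both lines, without overlap, at -0.83 ± 0.07 in ATF5-KD cells and -0.35 ± 0.07 in WT cells. Hoxa6 read 9.26, 9.15, 9.20 and 9.20 in ATF5-KD cells with MG132, against 9.75, 9.92, 9.93 and 10.07 with vehicle, and differed by -0.71 ± 0.06. Its values in WT cells were 9.04, 9.10, 9.09 and 8.90 with MG132 and 9.30, 9.26, 9.26 and 9.27 with vehicle, also without overlap, at -0.24 ± 0.06. The shared probe set of Hoxb7 and Hoxb8 was lower as well, at -0.49 ± 0.06 in ATF5-KD cells and -0.46 ± 0.06 in WT cells.

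Of the genes that were much higher in ATF5-KD cells, 7 of 9 in cluster c fell with MG132 in these cells. Among all genes tested, 24.3% were lower there. Hoxc8 was at -0.89 ± 0.11, Hoxc6 at -0.80 ± 0.09 and Hoxc12 at -0.80 ± 0.07 (adjusted p = 2.61e-06, 1.5e-06 and 1.01e-07). Their array values with MG132 were all below those with vehicle, as given above. In WT cells the same genes were at 0.23 ± 0.11, 0.01 ± 0.09 and -0.12 ± 0.07, with overlapping arrays, and none passed. Hoxc8 passed as higher in WT cells without WT MG132 plate 3 (adjusted p = 0.018), and Hoxc12 as lower without WT MG132 plate 4 (adjusted p = 0.0139). Hoxd8, which was much lower in ATF5-KD cells, was at 0.04 ± 0.08 in ATF5-KD cells (adjusted p = 0.673) and fell in WT cells, at -0.91 ± 0.08 (adjusted p = 7.37e-08). Hoxd9 was at 0.01 ± 0.07 in ATF5-KD cells and -0.04 ± 0.07 in WT cells, so it did not pass in either. The smallest calls in ATF5-KD cells, Hoxa9 at -0.14 and Hoxa11 at -0.21, were lost without ATF5-KD vehicle plate 2 or 4 or ATF5-KD MG132 plate 4 (adjusted p between 0.0583 and 0.0976), and also without ATF5-KD vehicle plate 1 or ATF5-KD MG132 plate 1 for Hoxa9 (adjusted p = 0.0712 and 0.0774) and ATF5-KD MG132 plate 2 for Hoxa11 (adjusted p = 0.115).

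**Figure D4:**
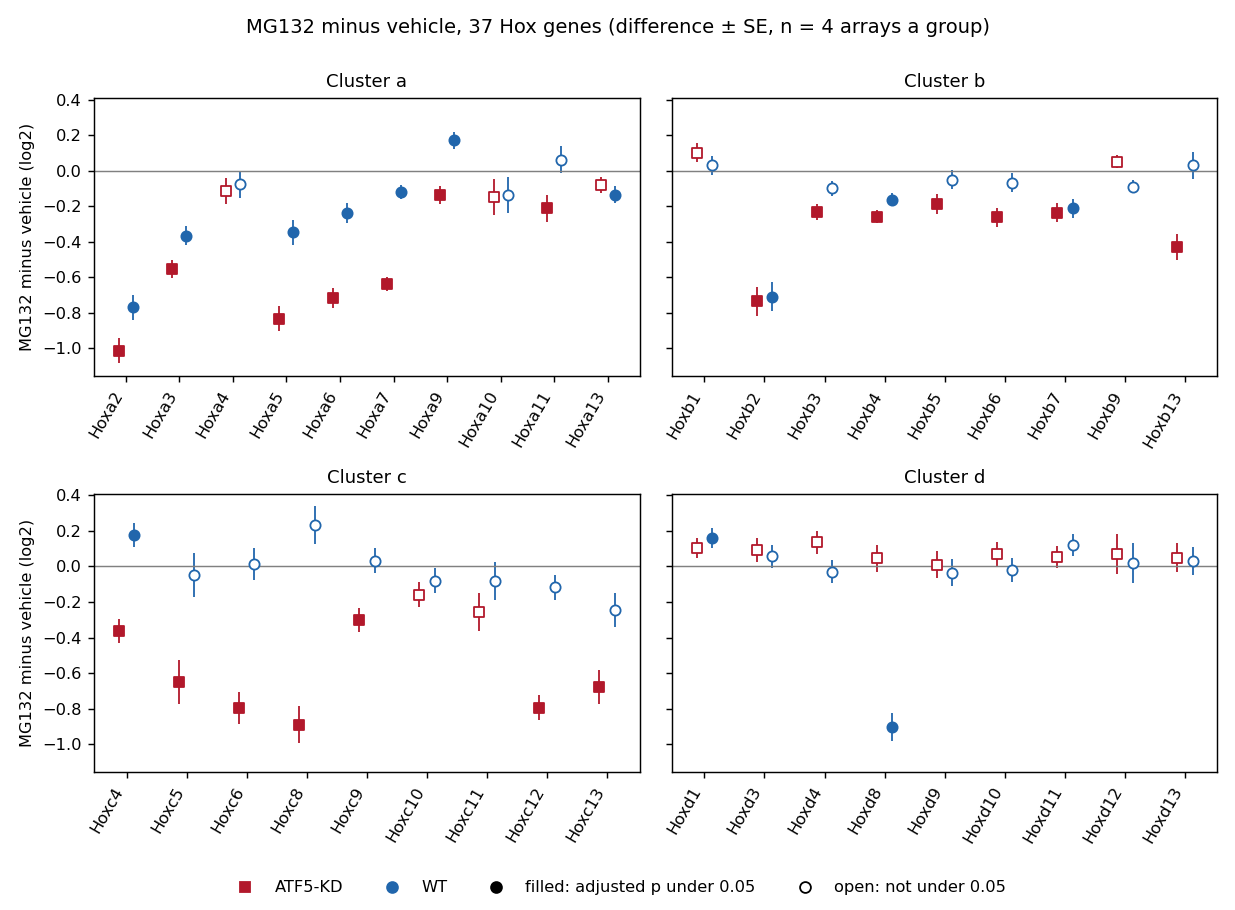
Difference between MG132 and vehicle (log2, y axis) for each Hox gene in paralog order (x axis) in clusters a to d, in ATF5-KD cells (squares) and WT cells (circles); bars are the standard error. Cluster c lies lower in ATF5-KD cells than in WT cells, by 1.12 for Hoxc8, Hoxa2 and Hoxb2 are low in both lines, and Hoxd8 is low in WT cells (-0.91) but not in ATF5-KD cells (0.04).

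The third question was whether the MG132 responses differed between the lines. By the interaction term 13 of 37 Hox genes passed, 12 with a lower response in ATF5-KD cells and 1 with a higher one, against 14.6% of all genes (10.1% lower, 4.45% higher). The 12 were Hoxa5, Hoxa6, Hoxa7, Hoxa9, Hoxb13 and, in cluster c, Hoxc4, Hoxc5, Hoxc6, Hoxc8, Hoxc9, Hoxc12 and Hoxc13, and the 1 was Hoxd8. The largest was Hoxc8, whose response was -0.89 ± 0.11 in ATF5-KD cells and 0.23 ± 0.11 in WT cells, a difference of -1.12 ± 0.15 (adjusted p = 0.000105). For Hoxd8 the responses were 0.04 and -0.91, a difference of 0.95 ± 0.11 (adjusted p = 3.11e-05). Hoxc6, Hoxc12 and Hoxc4 differed by -0.81, -0.68 and -0.54 (adjusted p = 0.000447, 0.000288 and 0.000986). Hoxd8 in ATF5-KD cells, at means of 6.44 with vehicle and 6.49 with MG132, lay near the 25th percentile of an array. In WT cells with vehicle Hoxc4 at 5.69 and Hoxc6 at 6.56 lay near or below it. The means of Hoxc5, Hoxc8, Hoxc9, Hoxc12, Hoxc13 and Hoxb13 there ran from 6.84 to 7.40. That is within the range of Hoxd1, Hoxd3 and Hoxd10 to Hoxd13 on all arrays, 6.64 to 7.48. At such levels a fall could be missed, and the part of this limit in the differing responses was not tested.

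In all 13 genes the difference between the lines was larger in size with vehicle than with MG132. The same 16 arrays give both statements, so this is the interaction in other words. For Hoxc5, at -0.60 ± 0.18 (adjusted p = 0.0282), the call was lost without WT vehicle plate 3, ATF5-KD vehicle plate 2 or 3 or ATF5-KD MG132 plate 1 (adjusted p between 0.0512 and 0.062). For Hoxc9, at -0.34 ± 0.10 (adjusted p = 0.029), it was lost without WT vehicle plate 2, ATF5-KD vehicle plates 2, 3 or 4, WT MG132 plate 1 or ATF5-KD MG132 plate 2 (adjusted p between 0.0576 and 0.0639). For Hoxc13, at -0.43 ± 0.13 (adjusted p = 0.0396), it was lost without WT vehicle plate 1 or 3, ATF5-KD vehicle plates 2, 3 or 4, WT MG132 plate 3 or 4 or ATF5-KD MG132 plate 1 or 2 (adjusted p between 0.0517 and 0.0855). Hoxa3, at -0.19 and not called, passed without ATF5-KD vehicle plate 1 (adjusted p = 0.0317) or WT MG132 plate 3 (adjusted p = 0.0477).

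Noncoding genes of the clusters were read on the same arrays. Of 9 measured, 2 were higher and 2 lower in ATF5-KD cells with vehicle, and 1 was higher and 1 lower with MG132, against 39.4% of all genes called with vehicle and 38.1% with MG132. Mir196a-1, which lies between Hoxb13 and Hoxb9, read 7.11, 7.45, 7.54 and 7.27 in ATF5-KD cells with vehicle, against 5.92, 5.88, 5.96 and 5.74 in WT cells with vehicle. The lines did not overlap, with a difference of 1.47 ± 0.11 with vehicle (adjusted p = 4.09e-09) and 1.07 ± 0.11 with MG132. Its neighbour Hoxb13 was higher by 1.51 and Hoxb9 was at 0.00 ± 0.04. Mir196a-2, between Hoxc10 and Hoxc9 in cluster c, was at 0.24 ± 0.11 with vehicle and did not pass (adjusted p = 0.0852). Mir615, which comes after Hoxc5 and before Hoxc4 in gene order, was at 0.02 ± 0.11. Whether it lies inside a gene body was not examined. Hoxd3os1, next to Hoxd3, was at -0.38 ± 0.06, Hoxaas2 at -0.23 ± 0.07 and Mir10a at 0.18 ± 0.06 with vehicle, all past the test. The array reads hairpin or primary transcripts here, so mature miRNA levels were not measured.

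The mature sequences of these miRNAs are shown because those of different clusters share a seed, bases 2 to 8, given in capitals (RefSeq, GRCm38.p6). The sequence of mmu-miR-196a-5p is the same from the cluster b and the cluster c locus. The miR-196 family is known to target Hox transcripts, Hoxb8 among them.
mmu-miR-196a-5p: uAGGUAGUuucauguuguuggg
mmu-miR-196b-5p: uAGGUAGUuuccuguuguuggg
mmu-miR-10a-5p: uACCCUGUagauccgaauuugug
mmu-miR-10b-5p: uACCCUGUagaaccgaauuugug

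Genes that work with or on Hox genes were described from lists, whose counts stand against 39.4% of all genes called with vehicle (21.5% higher, 17.9% lower) and 38.1% with MG132. Of 8 Hox cofactors of the Pbx, Meis and Pknox families, 5 were higher and 1 lower in ATF5-KD cells with vehicle (median 0.17), led by Meis3 at 1.27 ± 0.05, and 2 were higher and 2 lower with MG132. Of 11 genes of Polycomb complex 2, 4 were higher and 2 lower with vehicle (median 0.05), with Phf19, an accessory subunit, at 0.63 ± 0.06. Of 10 genes of Polycomb complex 1, 3 were higher and 4 lower (median -0.09), with Cbx7, a reader of methylated histone H3, at 0.66 ± 0.04. Of 11 Trithorax genes and histone demethylases, 1 was higher and 4 lower (median -0.09), with Kdm6b, which removes the Polycomb mark, at -0.51 ± 0.04. Of the 5 Cdx and Evx genes, 0 passed limma's test in any of the 5 comparisons, and 0 had an unadjusted p under 0.05.

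Retinoic acid, which induces 3′ Hox genes in embryos, is bound, made and broken down by genes of another list. Of its 16 genes, 5 were higher and 4 lower in ATF5-KD cells with vehicle (median -0.10), against 21.5% and 17.9% of all genes. The binding protein Crabp1 read 8.52, 8.47, 8.35 and 8.21 in ATF5-KD cells with vehicle, against 11.88, 11.75, 11.72 and 11.91 in WT cells with vehicle, and differed by -3.43 ± 0.08. Its relative Crabp2 read 9.76, 9.80, 9.83 and 10.01 in ATF5-KD cells with vehicle, against 7.80, 7.83, 7.51 and 7.73 in WT cells with vehicle, and was higher by 2.13 ± 0.08. The lines did not overlap for either gene. Their part in the Hox differences was not tested.

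Genes next to the clusters were compared as well. Of 24 flanking genes, Evx1 and Evx2 among them again, 9 were higher and 1 lower in ATF5-KD cells with vehicle, against 21.5% and 17.9% of all genes, with a median of 0.04. Copz1 and Cbx5, flanking cluster c, were at 0.25 ± 0.03 and 0.24 ± 0.03. Smug1 and Calcoco1, which flank it too and were added after their values were seen, were at 0.40 ± 0.06 and 0.38 ± 0.06. Nfe2, also on the chromosome of cluster c, was at 0.02 ± 0.07 and did not pass (adjusted p = 0.88). All of these flanking values were below the smallest difference of a Hox gene of cluster c with vehicle, and Mir196a-2 and Mir615 inside it are given above. Chn1, on the chromosome of cluster d, was lower, at -1.19 ± 0.07. There Mtx2 was higher by 0.15 ± 0.04, and Evx2, Lnpk, Atf2 and Atp5g3 did not pass. Jazf1, on the chromosome of cluster a, was higher by 0.61 ± 0.05. Skap2, Hibadh and Tax1bp1 there were higher by less, and Snx10 and Evx1 did not pass. Of 18 other genes of limb and trunk position, 8 were higher and 2 lower (median 0.04), against the same shares of all genes, with Shox2 at 1.66 ± 0.06, Prrx2 at 1.48 ± 0.04, Prrx1 at 1.10 ± 0.03 and Tbx15 at -1.46 ± 0.05.

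Markers of cell types were compared between the lines in the same way. Over 8 lists, 16 of 47 markers passed with vehicle, against 39.4% of all genes. Of 10 fibroblast markers 4 were higher and 2 lower in ATF5-KD cells with vehicle. The largest of the higher ones were Thy1 at 0.86 ± 0.05 and Pdgfra at 0.71 ± 0.05. The 2 lower ones were Col1a2 at -0.39 ± 0.05 and Col1a1 at -0.16 ± 0.04. The mean level of the 10 markers was 10.08 to 10.14 in ATF5-KD arrays, against 9.94 to 9.97 in WT arrays. Of 4 smooth muscle markers 2 were lower and 0 higher, with Tagln at -2.06 ± 0.06 and Acta2 at only -0.08 ± 0.03. Cnn1 and Myh11, at -0.12 and -0.05, did not pass. The mean level of the list, in which Tagln differed by far the most, was 9.55 to 9.66 in ATF5-KD arrays, against 10.15 to 10.25 in WT arrays. Of 6 macrophage markers 2 were higher, led by Cd14 at 0.79 ± 0.07, and 4 (Adgre1, Csf1r, Ptprc and Aif1) lay below the 25th percentile of the arrays in every group. Of 5 neuron markers 2 were higher, led by Map2 at 1.22 ± 0.06, and 1 was lower, Tubb3 at -0.35 ± 0.09. Passing in the endothelial list were 0 higher and 1 lower of 6, in the epithelial list 0 of 6 (0 higher and 1 lower at an unadjusted p under 0.05), in the skeletal muscle list 1 higher of 6 and in the adipocyte list 1 higher of 4. Their part in the Hox differences was not tested.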

How the data were processed

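Members, gene lists and tests were chosen with earlier results of these data known. As deposited, each array has a column of log2 intensities per probe set. The submitters' processing notes name RMA and Partek, without versions. RMA equalises array distributions and can compress differences of dim probe sets. No detection calls were used.

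Of 35556 probe sets, 21789 carried 1 gene symbol in the platform annotation and were kept, and 1621 with several symbols were left out. A gene was represented by its probe set with the highest mean over 16 arrays, which gave 19938 genes. RefSeq tables of GRCm38.p6 supplied names, gene order and sequences, and no source used here states the build of the array's design.

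Groups and replicate numbers came from the sample titles. R 4.3.3 and limma 3.58.1 fitted 1 mean per group to the log2 values of 16 arrays, with eBayes moderation, two-sided tests and no block. Adjustment was by Benjamini-Hochberg over all genes, with a threshold of 0.05. The 5 contrasts were the line difference with vehicle and with MG132, the MG132 response in each line, and the difference of the responses. On simulated data for the line difference with vehicle (19938 genes) the fit recovered 76.1% of genes changed 1.25-fold, 97% at 1.5-fold and 100% at 2-fold, and called 12 unchanged genes. In the simulation 67, 67 and 66 genes were changed at these folds, and noise was drawn independently for each gene. The real arrays share a gradient and had far more genes called, so these figures may not hold for them.

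Values of every array are given for the 12 Hox genes with the largest line differences, the 8 with the largest MG132 responses and up to 6 with differing responses. The first and second of these sets had a comparison without overlap of the groups and of at least 1.5-fold. No such condition was set for the third. Values are also given for Hoxa10, which was added after its values were seen. Other lists name up to 4 members with the smallest p among those past the threshold. The sample titles do not say whether replicate numbers pair plates, and the arrays did not settle it. Of 24 pairs of same-numbered arrays, 10 correlated above 0.1 in their deviations from the group means. Alternatives were the normalization, centring, filters on dim probe sets, the choice of probe set, the samples in the fit, the prior, array weights, the replicate block, leaving out each array, and, added after seeing the data, 2 settings for a gradient across arrays.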

Additional observations from a re-analysis of the deposited data

Results flagged for a closer look

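The MG132 response differed between the lines, by the interaction term, in 13 Hox genes. The difference of the responses, ATF5-KD minus WT, was -1.12 ± 0.15 for Hoxc8, -0.81 ± 0.13 for Hoxc6, -0.68 ± 0.10 for Hoxc12, -0.60 ± 0.18 for Hoxc5, -0.54 ± 0.09 for Hoxc4, -0.43 ± 0.13 for Hoxc13 and -0.34 ± 0.10 for Hoxc9. It was -0.52 ± 0.06 for Hoxa7, -0.48 ± 0.10 for Hoxa5, -0.47 ± 0.08 for Hoxa6, -0.31 ± 0.07 for Hoxa9 and -0.46 ± 0.11 for Hoxb13. It was 0.95 ± 0.11 for Hoxd8, the only gene with a higher response in ATF5-KD cells. Low values may limit these differences, for the cluster c genes and Hoxb13 in WT cells and for Hoxd8 in ATF5-KD cells.

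In 10 of 152 groups of 4 arrays examined, 1 array lay far from the other arrays of its group by Dixon's criterion. Chance gives about 1 in 20 such groups. In ATF5-KD cells with MG132, plate 4 read 7.98 for Hoxb4, against 7.91 to 7.92 in the others, and plate 3 read 8.29 for Hoxc11, against 8.11 to 8.12. In ATF5-KD cells with vehicle, plate 1 read 9.19 for Hoxa4, against 8.99 to 9.02, 10.70 for Hoxb9, against 10.75 to 10.76, and 10.13 for Hoxc9, against 10.37 to 10.39. In WT cells with MG132, plate 2 read 8.27 for Hoxb6, against 8.10 to 8.11, and plate 3 read 7.23 for Hoxb13, against 7.45 to 7.47. In WT cells with vehicle, plate 1 read 8.36 for Hoxa2, against 8.59 to 8.61, and 9.75 for Hoxb3, against 9.69 to 9.70, and plate 2 read 8.88 for Hoxa4, against 9.03 to 9.06.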

How the results depend on the processing

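Under 12 other settings of the fit (11 for the difference of the responses), the number of Hox genes called was 24 to 28 for the line difference with vehicle, 27 to 29 for that with MG132, 20 to 26 for MG132 in ATF5-KD cells, 10 to 16 for MG132 in WT cells and 10 to 15 for the difference of the responses. Leaving out each array in turn gave 25 to 27, 26 to 29, 19 to 25, 10 to 15 and 10 to 14 in the same order. The Atf5 difference ranged from -0.25 to -0.18 with vehicle and from -0.34 to -0.26 with MG132 when 1 array was left out, and was past the threshold each time. Without 4 arrays at the low end of the gradient (WT vehicle 1 and 4, ATF5-KD vehicle 1 and WT MG132 4), an alternative chosen after seeing the data, Atf5 with vehicle was at -0.12 with an adjusted p of 0.0511, and the calls of Hoxb2, Hoxb3 and Hoxb7 with vehicle were lost (adjusted p = 0.285, 0.0727 and 0.0811); the cause was not tested. That gradient held 37.8% of the variance within groups. With the replicate number as a block, 27, 28, 21, 13 and 13 Hox genes were called, and Atf5 was at -0.22 with vehicle and -0.31 with MG132; the block ended the call of Hoxd1 in WT cells (adjusted p = 0.0511) and made one for Hoxc13 (adjusted p = 0.0207). Whether the numbers pair plates was not settled. Deviations of same-numbered arrays correlated between -0.50 and 0.40, and 7 of 16 arrays correlated best with their own number. Between vehicle and MG132 arrays of the same line, the range was 0.0315 to 0.335 in WT cells and -0.0398 to 0.182 in ATF5-KD cells. Under every setting run, 23 of 27, 26 of 28, 19 of 21, 8 of 13 and 10 of 13 Hox calls passed, and 0 changed sign. Hoxd8, Hoxd9 and the 9 cluster c genes passed in both line comparisons under every setting run, except that a filter at the 25th percentile of gene means left Hoxc4 untested.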
